A study of Mus musculus with 6 samples.

Results

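Triglyceride synthesis genes were examined by RNA sequencing in the livers of exercised and sedentary mice. The set held 10 genes chosen by name (Gpam, Agpat2, Agpat3, Lpin1, Lpin2, Lpin3, Dgat1, Dgat2, Mogat1 and Pnpla3), and all 10 were found among the 16123 genes listed. The exercise group was 3 healthy adult mice that ran for 6 weeks, 22 km each, with liver taken 24 h after the last session. The sedentary group was 3 mice that did no treadmill training. The labels state neither strain, sex nor age in weeks, and no altered gene or drug is named for either group. Perfusion with buffered saline preceded dissection. The study addressed moderate exercise, liver metabolism and the lactylation of proteins. Read counts summed over the listed genes came to 17941303 to 18371949 per library.

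Liver builds triglyceride mainly by adding fatty acids to glycerol 3-phosphate in steps. Glycerol-3-phosphate acyltransferases add the first acyl chain and 1-acylglycerol-3-phosphate acyltransferases add another, which gives phosphatidic acid. Lipins then remove the phosphate to give diacylglycerol, and diacylglycerol acyltransferases add the last chain. The product is stored in lipid droplets or exported in very low density lipoprotein, and diacylglycerol is also the precursor of phosphatidylcholine and phosphatidylethanolamine.

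The clearest change lay at the phosphatidic acid step, where the 3 lipin genes did not move together. Lpin2 was higher in exercised liver, and Lpin1 and Lpin3 were lower. The other 5 tested members had smaller differences, with absolute log2 fold changes of 0.04 to 0.09. Of the 10 genes, 8 had a mean of at least 1 FPKM (reads scaled to transcript length and library size) over the 6 libraries and were tested, and Mogat1 and Pnpla3 were below that level. With edgeR's quasi-likelihood test at an adjusted p below 0.05, 2 of the 8 were higher (Lpin2 and Agpat3) and 4 were lower (Lpin1, Lpin3, Gpam and Dgat2), of which Gpam and Dgat2 had values above 0 that did not pass on log2(TPM + 1) (0.0316 and 0.0461), and Dgat2 also with library totals alone (0.0149). Agpat2 and Dgat1 did not pass. Among all 10266 tested genes, 38.1% passed, 19.1% higher and 19.0% lower, so that calls were common in this comparison. That split was 1961 higher to 1952 lower with TMM, edgeR's trimmed-mean scaling. It was 3537 to 1203 with library totals alone, 2583 to 1575 when the 20 most abundant genes were left out of the totals, 2868 to 1099 with limma on log2(FPKM + 1), 2856 to 1096 with a pseudocount of 0.1, and 3716 to 915 on log2(TPM + 1). The median absolute log2 fold change was 0.084 over the 8 tested members and 0.12 over all tested genes. Lpin3, Lpin2 and Lpin1 had larger absolute changes than 97.6%, 92.9% and 92.1% of tested genes, whereas the other 5 tested members lay between 18.9% and 38.6%.

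**Figure D1:**
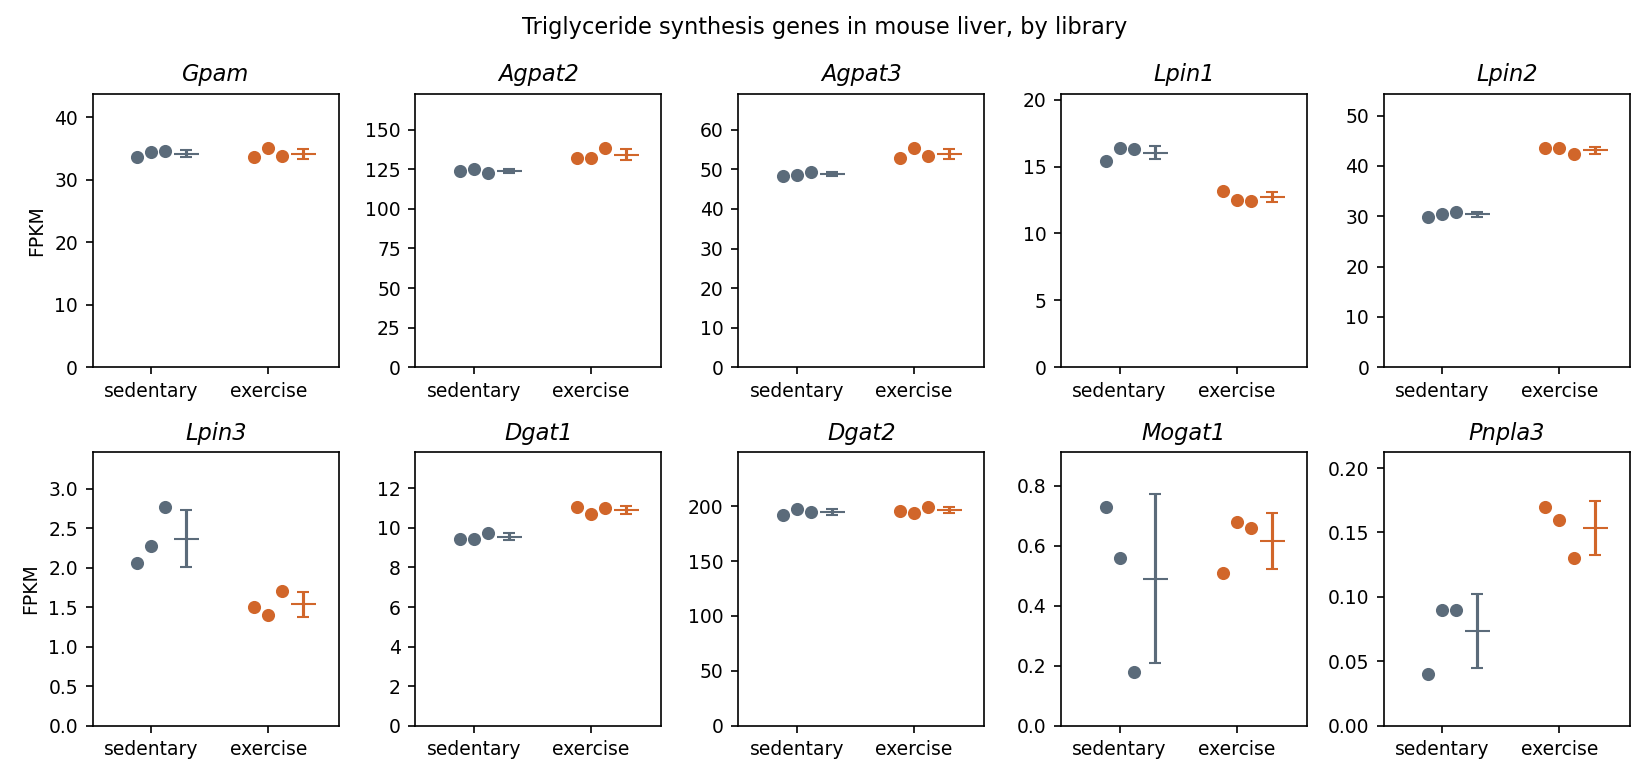
FPKM of the 10 triglyceride synthesis genes (vertical axes from 0, each with its own range) in 3 sedentary (grey) and 3 exercise (orange) libraries; points are libraries, and the bar beside them is the mean with its SD. Lpin2 is higher and Lpin1 and Lpin3 are lower in every exercise library than in any sedentary one, while the points of Gpam, Dgat2 and Mogat1 overlap.

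Lpin2 libraries of a group differed about as much as counting alone allows. The within-group coefficient of variation of scaled counts for Lpin2 was 1.54% in sedentary and 1.57% in exercise libraries, where counting alone gives 1.82% and 1.53%. Some other members were as close in a group, such as Dgat2 in sedentary libraries at 1.22%, where counting gives 1.2%. Others lay further from counting, on both sides of it. Lpin3 was at 14.7% in sedentary libraries, where counting gives 8.8%. Agpat2 was at 0.405% in sedentary and 3.23% in exercise libraries, where counting gives 1.92% and 1.85%. Over all tested genes with a mean of 20 to 2000 reads, the variance within a group averaged 1.2 times the mean in sedentary and 1.19 times in exercise libraries, where counting alone gives 1, and above 2000 reads it averaged 4.5 and 4.74 times. The common biological coefficient of variation was 1.84%. P-values here measure the spread between these libraries, which may be in part technical. With 1 summed library per group and an assumed biological coefficient of variation of 0.1, no member passed (edgeR exact test, adjusted p of 0.636 for Lpin2, 0.715 for Lpin1 and 0.165 for Lpin3), and 50 genes were called higher and 126 lower among all tested.

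Hepatocyte markers were abundant in every library. Summed FPKM of 8 hepatocyte markers was 71500 to 72900 in sedentary and 72000 to 72600 in exercise libraries. Of the 8, 3 were called higher and 5 lower, where 19.1% of all tested genes were higher and 19.0% lower. Genes that define fat cells, which also make triglyceride, were near 0, with Adipoq at most 0.06 and Plin1 at most 0.04 FPKM in any library. The 5 fat cell markers analysed summed to 12.3 to 13.8 and 12.3 to 16.3 FPKM, mostly Fabp4 at 11.2 to 15.2. Of 7 Kupffer cell and macrophage markers 5 were lower and none was higher, beside the same shares of all tested genes. Their sums were 139 to 140 in sedentary and 114 to 119 FPKM in exercise libraries. The FPKM of Vsig4, Timd4 and Cd68 overlapped between the groups. Pancreatic acinar markers summed to 260 to 274 reads in sedentary and 115 to 123 reads in exercise libraries, and Amy2a5, Cela3b, Cpa1, Ctrb1, Prss2 and Pnlip were at 0 in the latter. Neutrophil markers summed to 30 to 53 and 28 to 33 reads, skeletal muscle markers to 5 to 14 and 10 to 14 reads, and small intestine markers to 96.7 to 101 and 97.7 to 101 FPKM. The intestine sum was mostly Fabp2 (47.2 to 55.4 FPKM over all libraries) and Apoa4 (42.8 to 51.8 FPKM). Fabp2 was higher and Apoa4 lower in every exercise library than in any sedentary one. Vil1 was at most 0.24, Lct at most 0.01 and Mogat2 at most 0.46 FPKM. The part of these shifts in the changes described here was not tested. In whole tissue, fewer cells of a type and less RNA per cell cannot be told apart.

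The lipins are magnesium-dependent phosphatidic acid phosphatases. Lpin1 is also known as a nuclear coactivator that works with PPAR-alpha and PGC-1alpha, and its loss in the mouse causes fatty liver dystrophy. Lpin2 is known as a lipin of liver. Lpin1 lies on chromosome 12 (16535669 to 16653903, gene ID 14245), Lpin2 on chromosome 17 (71183532 to 71249818, gene ID 64898) and Lpin3 on chromosome 2 (160880670 to 160906000, gene ID 64899), in GRCm38.p6. The promoter windows of these genes are shown because they are the members that changed most and in opposite directions. Each window is 300 bases of RefSeq around an annotated start, and 8 of the 10 members had such a window. The Lpin2 and Lpin3 windows are at the most upstream of 3 and 2 listed starts. The single Lpin1 start is inside the annotated gene. The windows are chr12:16610917-16611216 (minus strand), chr17:71183282-71183581 (plus strand) and chr2:160880420-160880719 (plus strand). Capitals mark matches to 5 motifs searched on both strands. The E-box was searched as CACGTG and the GC box as GGGCGG. The cAMP response element was searched as TGACGTCA. The TATA box was searched as TATAAA, and the CCAAT box by the letters in its name.
Lpin1: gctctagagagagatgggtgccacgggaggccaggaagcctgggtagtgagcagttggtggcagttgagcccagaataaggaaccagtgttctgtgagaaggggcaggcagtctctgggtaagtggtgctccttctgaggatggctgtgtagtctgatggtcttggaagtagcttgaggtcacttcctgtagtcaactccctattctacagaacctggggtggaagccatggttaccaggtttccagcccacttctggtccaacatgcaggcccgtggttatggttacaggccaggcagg
Lpin2: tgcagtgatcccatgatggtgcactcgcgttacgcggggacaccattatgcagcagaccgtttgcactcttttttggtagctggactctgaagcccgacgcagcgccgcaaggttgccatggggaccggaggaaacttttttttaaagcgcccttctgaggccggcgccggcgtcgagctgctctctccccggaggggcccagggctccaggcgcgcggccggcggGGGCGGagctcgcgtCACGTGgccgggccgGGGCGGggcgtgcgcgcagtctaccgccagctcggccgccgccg
Lpin3: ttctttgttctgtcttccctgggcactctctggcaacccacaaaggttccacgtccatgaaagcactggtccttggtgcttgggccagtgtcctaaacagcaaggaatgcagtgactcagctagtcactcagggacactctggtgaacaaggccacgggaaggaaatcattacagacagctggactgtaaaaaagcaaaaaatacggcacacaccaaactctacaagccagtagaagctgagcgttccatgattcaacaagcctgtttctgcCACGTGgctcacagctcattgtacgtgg
The Lpin2 window holds an E-box whose first base lies at position -9 from the start, between GC boxes at -24 and 7. The Lpin3 window holds an E-box at position 23. An E-box occurs in 7.15% of all 32851 promoter windows of this length and a GC box in 35.7%. The Lpin1 window holds none of the 5 motifs. A CCAAT box occurs in 37.4% of all windows, a TATA box in 13.6% and a cAMP response element in 1.79%. The windows of Lpin1, Lpin2 and Lpin3 have 55.3%, 68.7% and 50.0% G and C. Over all 12 windows of the 8 members, an E-box was found in 2, a GC box in 6, a CCAAT box in 4, a cAMP response element in 1 (Pnpla3) and a TATA box in 0.

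Lpin2 stood at 29.9, 30.4 and 30.8 FPKM in the sedentary libraries and at 43.5, 43.5 and 42.3 FPKM in the exercise libraries. Every exercise library was above every sedentary one. Its mean rose from 30.4 ± 0.472 to 43.1 ± 0.664 FPKM (SD, n = 3), and TMM-scaled counts gave a log2 fold change of 0.44 (SE 0.03, edgeR adjusted p = 7.84e-19), or 1.35-fold. Lpin1 stood at 15.45, 16.4 and 16.3 FPKM in the sedentary libraries and 13.1, 12.5 and 12.5 FPKM in the exercise libraries, again without overlap. Its log2 fold change was −0.42 (SE 0.04, edgeR adjusted p = 2.41e-13), a 1.34-fold fall. Lpin3, the least abundant lipin, stood at 2.06, 2.27 and 2.77 FPKM in sedentary and 1.5, 1.4 and 1.71 FPKM in exercise libraries. These rest on 114, 123 and 150 reads against 81, 76 and 94. The log2 fold change of Lpin3 was −0.68 (SE 0.12, edgeR adjusted p = 1.34e-05), a 1.6-fold fall on a wider error than the other lipins. All 3 lipins passed in the same direction when the test was made against a 1.2-fold change instead of no change.

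The opposite movements altered the make-up of lipin RNA, a quantity that does not depend on how libraries are scaled to each other. The FPKM ratio of Lpin2 to Lpin1 was 1.93, 1.86 and 1.89 in the sedentary libraries and 3.31, 3.48 and 3.40 in the exercise libraries, which is 1.79 times higher in the mean. Lpin2 made up 62.3 ± 0.683% of summed lipin FPKM in sedentary and 75.2 ± 0.532% in exercise libraries (SD, n = 3). Lpin1 made up 32.9 ± 0.416% and 22.1 ± 0.422%, and Lpin3 made up 4.84 ± 0.631% and 2.68 ± 0.306%. For each lipin the groups did not overlap (two-sided exact permutation p = 0.1, the smallest that 3 against 3 allows, and 0.14 adjusted over 7 shares compared). The difference in the Lpin3 share was −2.16 percentage points in FPKM and −1.24 in read counts. The summed lipin FPKM was 47.4, 49.1 and 49.9 in sedentary and 58.1, 57.4 and 56.5 in exercise libraries, so the sum was higher too on the FPKM scale.

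**Figure D2:**
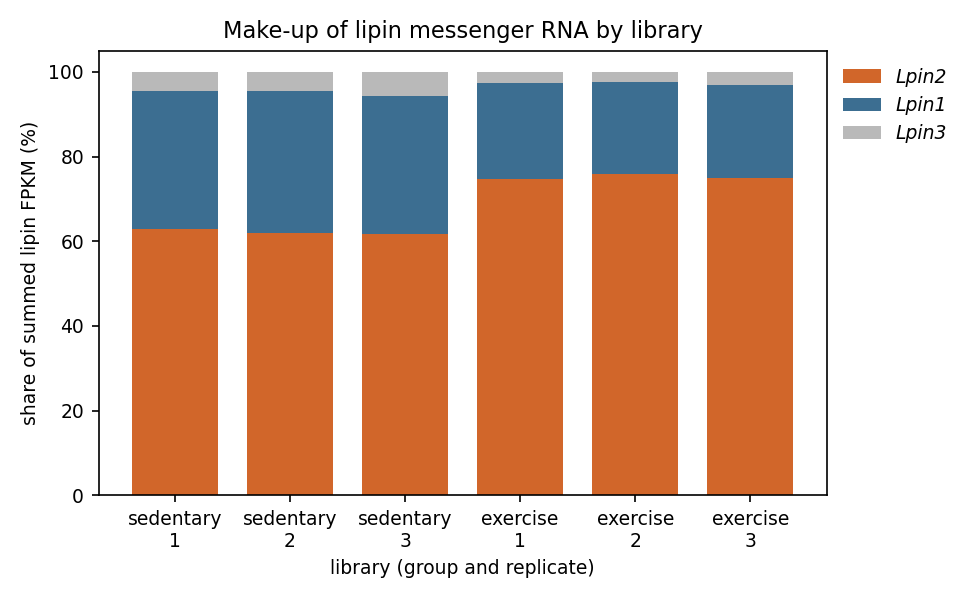
Share of summed lipin FPKM (vertical axis, percent) taken by Lpin2, Lpin1 and Lpin3 in each of 3 sedentary and 3 exercise libraries. Lpin2 takes 61.7% to 63.0% in sedentary and 74.8% to 75.8% in exercise libraries, and the shares of Lpin1 and Lpin3 are smaller in exercise.

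The first step changed little at Gpam, which encodes the glycerol-3-phosphate acyltransferase of the outer mitochondrial membrane and is a known target of SREBP-1c. Gpam (chromosome 19, 55067635 to 55127319, gene ID 14732) stood at 33.6, 34.4 and 34.6 FPKM in sedentary and 33.6, 35.0 and 33.8 FPKM in exercise libraries, and the groups overlapped. TMM-scaled counts gave a log2 fold change of −0.08 (SE 0.03, edgeR adjusted p = 0.0174). That call ended without sedentary replicate 3 (edgeR adjusted p = 0.0761), exercise replicate 1 (0.0973) or exercise replicate 3 (0.0526), and by DESeq2 (0.0724). The difference was near 0 with library totals alone (log2 fold change −0.00173) and turned to 0.0316 on log2(TPM + 1), and the direction of Gpam therefore depended on the scaling. Gpat4, the isoform of the endoplasmic reticulum, rose in the same libraries, from 40.4, 38.7 and 38.8 to 48.3, 45.8 and 48.5 FPKM (log2 fold change 0.20, SE 0.03, edgeR adjusted p = 3.06e-07). Gpat3 was low at 1.41 to 1.67 FPKM in sedentary and 1.6 to 1.83 FPKM in exercise libraries, and its log2 fold change of 0.05 (SE 0.14) missed the threshold. Gpam made up 44.4%, 46.1% and 46.3% of the summed FPKM of these 3 genes in sedentary and 40.3%, 42.5% and 40.2% in exercise libraries (two-sided exact permutation p = 0.1, 0.14 adjusted over 7 shares). The exercise shares were all below the sedentary ones.

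At the acylation of lysophosphatidic acid, Agpat2 was the main transcript and Agpat3 the next. Agpat2, whose loss causes lipodystrophy in mice and humans, lies on chromosome 2 (26593057 to 26604417, gene ID 67512). It stood at 124, 125 and 123 FPKM in sedentary and 132, 132 and 138 FPKM in exercise libraries. The FPKM groups did not overlap, but TMM-scaled counts gave a log2 fold change of 0.04 (SE 0.03, edgeR adjusted p = 0.265), which missed the threshold. It passed with library totals alone (log2 fold change 0.12, edgeR adjusted p = 0.000678), when the 20 most abundant genes were left out of the totals (0.0767, edgeR adjusted p = 0.0307), with limma on log2(FPKM + 1) (0.115, adjusted p = 0.00889) and with limma on log2(TPM + 1) (0.149, adjusted p = 0.00254). Agpat3, an acyltransferase with a preference for polyunsaturated chains (chromosome 10, 78269174 to 78352497, gene ID 28169), stood at 48.4, 48.6 and 49.3 FPKM in sedentary and 52.9, 55.4 and 53.4 FPKM in exercise libraries. It rose by a log2 fold change of 0.09 (SE 0.03, edgeR adjusted p = 0.00823), a 1.06-fold change. The call ended without exercise replicate 2 (edgeR adjusted p = 0.0635) and after quantile normalization (limma adjusted p = 0.104). Agpat1, a broadly expressed isoform, rose from 4.31, 3.95 and 4.03 to 5.44, 5.55 and 5.53 FPKM (log2 fold change 0.33, SE 0.09, edgeR adjusted p = 0.00366). Agpat5 was at 2.38 to 2.58 and 2.17 to 2.24 FPKM, and its log2 fold change of −0.23 (SE 0.1, edgeR adjusted p = 0.0517) missed the threshold. Agpat4 was below the level tested. Agpat2 made up 69.0 ± 0.439% and 68.3 ± 0.749% of the summed FPKM of Agpat1 to Agpat5 (SD, n = 3, exact permutation p = 0.2), and Agpat3 27.1 ± 0.363% and 27.4 ± 0.807% (exact permutation p = 0.7). The groups overlapped in both shares.

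At the last step, Dgat2 was the most abundant transcript, also among all members. Dgat2 (chromosome 7, 99153663 to 99182713, gene ID 67800) is known to esterify newly made fatty acids in liver. It stood at 192, 197 and 195 FPKM in sedentary and 196, 194 and 199.6 FPKM in exercise libraries, and the groups overlapped. TMM-scaled counts gave a log2 fold change of −0.06 (SE 0.02, edgeR adjusted p = 0.0284). The sign turned with library totals alone (0.0149), on log2(FPKM + 1) (0.0116) and on log2(TPM + 1) (0.0461). The call ended without sedentary replicate 2 (edgeR adjusted p = 0.103), sedentary replicate 3 (0.0719), exercise replicate 1 (0.0768) or exercise replicate 2 (0.119), and by DESeq2 (0.0788). Dgat1 (chromosome 15, 76502012 to 76512021, gene ID 13350), the unrelated enzyme of the same reaction, stood at 9.46, 9.44 and 9.76 FPKM in sedentary and 11.1, 10.7 and 11.01 FPKM in exercise libraries. Neither these FPKM values nor the counts (283, 279 and 293 against 329, 303 and 307) overlapped between the groups. TMM-scaled counts gave a log2 fold change of 0.08 (SE 0.07, edgeR adjusted p = 0.39), which missed the threshold. Library totals alone gave 0.156 (edgeR adjusted p = 0.0592), which missed it too. Limma on log2(FPKM + 1) gave 0.176 (adjusted p = 0.00832). The transcript length implied by count and FPKM was 1627 to 1642 bases in sedentary libraries and 1645, 1580 and 1547 bases in the exercise libraries, and the exercise to sedentary ratio of Dgat1 was 1.14 in FPKM and 1.11 in reads per library total. Dgat2 made up 95.3 ± 0.105% of summed Dgat1 and Dgat2 FPKM in sedentary and 94.7 ± 0.0682% in exercise libraries (SD, n = 3, exact permutation p = 0.1, 0.14 adjusted over 7 shares). The groups did not overlap, and the difference was −0.594 percentage points in FPKM and −0.39 in read counts.

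Mogat1 and Pnpla3 were close to the floor. Mogat1, which makes diacylglycerol from monoacylglycerol (chromosome 1, 78511060 to 78606964, gene ID 68393), had 12, 9 and 3 reads in sedentary and 8, 8 and 10 reads in exercise libraries. The groups overlapped fully, and in a fit without the filter on low genes the log2 fold change was 0.07 (SE 0.44, edgeR adjusted p = 0.944). It was −0.32 without sedentary replicate 3 and −0.05 without exercise replicate 3. The length implied for Mogat1 fell to 656 bases in exercise replicate 2, against 841 to 911 in the other libraries, and the exercise to sedentary ratio was 1.26 in FPKM and 1.1 in reads per library total. Pnpla3, a lipid droplet protein with hydrolase and acyltransferase activity and a known SREBP-1c target (chromosome 15, 84167776 to 84189521, gene ID 116939), had 3, 7 and 7 reads in sedentary and 13, 12 and 10 reads in exercise libraries. Its FPKM was 0.04 to 0.09 and 0.13 to 0.17, and the groups did not overlap. In the fit without the filter its log2 fold change was 0.98 (SE 0.42, edgeR adjusted p = 0.0955), which missed the threshold at this depth. It passed with limma on log2(FPKM + 1) in the same unfiltered set (adjusted p = 0.0422).

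Over the 8 tested members, the FPKM groups did not overlap for 6, of which 4 were higher and 2 lower. Among all tested genes 51.0% did not overlap, 36.6% higher and 14.3% lower. In order of level, Dgat2 led, followed by Agpat2, Agpat3, Gpam, Lpin2, Lpin1, Dgat1, Lpin3, Mogat1 and Pnpla3 in sedentary liver. The order in exercised liver was the same except that Lpin2 stood above Gpam. In both groups the FPKM ranges of neighbours in this order did not overlap. Dgat2 and Agpat2 were at the 97.1 and 95.8 percentiles of all listed genes by mean FPKM, and Lpin3, Mogat1 and Pnpla3 at 44.2, 31.0 and 19.5.

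**Figure D3:**
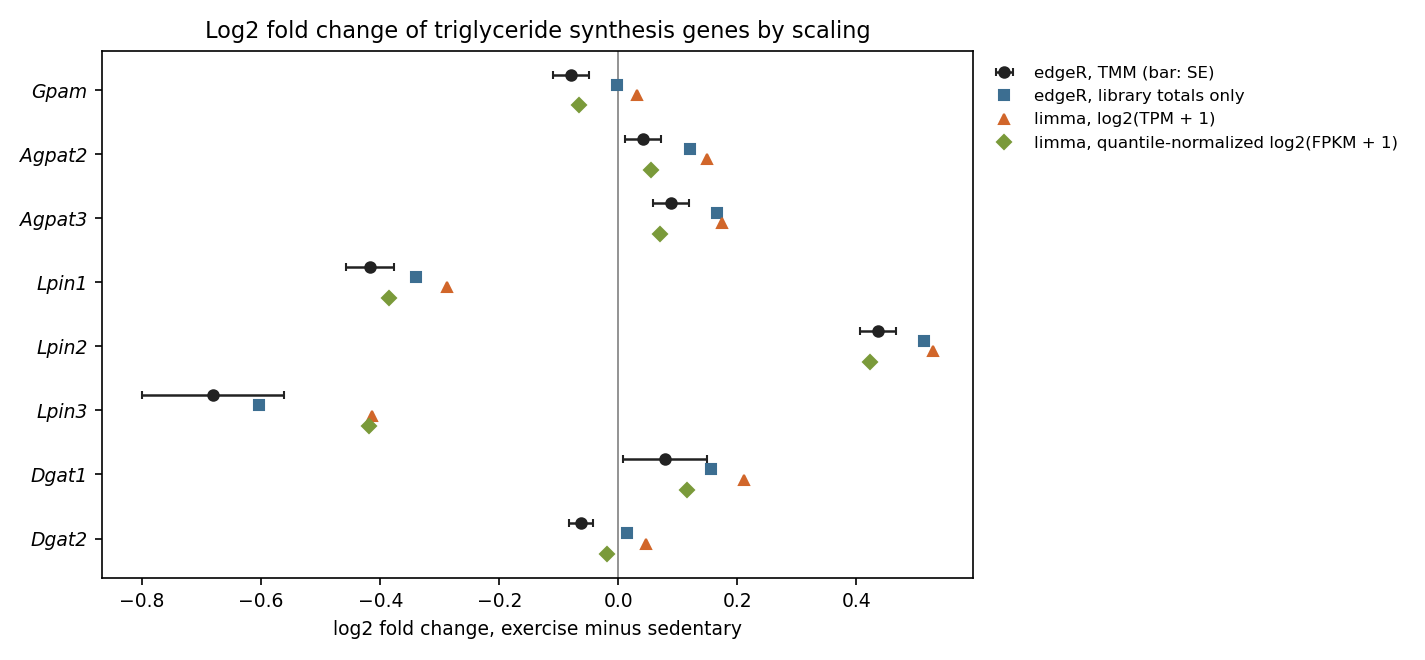
Log2 fold change (horizontal axis, exercise minus sedentary) of the 8 tested members under 4 combinations of scaling and test; black circles are edgeR with TMM and carry the SE, and the other symbols have no error bar. The lipins keep their side of 0 under all 4, whereas Gpam and Dgat2 lie on either side of it.

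The other genes of the pathway were counted in lists by step. Each count with TMM is read against the 19.1% of all tested genes called higher and the 19.0% called lower. Counts under another setting are read against the counts over all tested genes in that setting. Of 11 tested genes at other steps of glycerolipid synthesis 4 rose, none fell and 7 did not pass, with a median log2 fold change of 0.088, and the called genes were near the 38.1% called among all tested genes. Those that rose were Agpat1 and Gpat4, described above, and 2 genes that supply glycerol 3-phosphate. Gpd1, which reduces dihydroxyacetone phosphate, went from 148 ± 5.31 to 191 ± 0.865 FPKM (SD, n = 3, log2 fold change 0.30, edgeR adjusted p = 1.88e-14). Gk, glycerol kinase, went from 18.8 ± 0.437 to 22.7 ± 0.803 FPKM (log2 fold change 0.18, edgeR adjusted p = 5.93e-05). Against a 1.2-fold change, 0 of the 11 tested genes of this list were higher and 0 lower. All tested genes then had 239 higher and 414 lower. The genes for seipin (Bscl2) and for the lipin phosphatase complex (Ctdnep1 and Cnep1r1) did not pass, with log2 fold changes of −0.08, 0.09 and −0.14.

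A list of 10 tested genes covered enzymes that act on phosphatidic acid or diacylglycerol, or later on routes from them to other lipids. Of these 10, 3 rose, none fell and 7 did not pass (median 0.04), where 38.1% of all tested genes were called. With library totals alone and on log2(TPM + 1), 6 of these 10 were higher and 0 lower. Among all 10266 tested genes, the counts were then 3537 higher and 1203 lower, and 3716 higher and 915 lower. Cept1, which uses diacylglycerol to make phosphatidylcholine and phosphatidylethanolamine, had means of 22.8 ± 0.926 and 30.9 ± 0.429 FPKM (SD, n = 3) and rose 1.32-fold on TMM-scaled counts (edgeR adjusted p = 5.81e-12). Chpt1, its choline-specific relative, rose 1.16-fold. Crls1, the cardiolipin synthase, rose 1.38-fold. The diacylglycerol kinase genes Dgka and Dgkz were at log2 fold changes of −0.24 and −0.12 and did not pass.

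Of 9 genes that supply acyl-CoA 5 rose, 2 fell and 2 did not pass (median 0.066), beside 19.1% higher and 19.0% lower among all tested genes. Scd1, the desaturase gene, led with a 1.71-fold rise, followed by Fasn (1.21-fold) and the acyl-CoA synthetase Acsl1 (1.15-fold). Acsl4, a synthetase that prefers arachidonate, fell 1.30-fold. Acly, which makes cytosolic acetyl-CoA, fell 1.08-fold. Its call ended with library totals alone (edgeR adjusted p = 0.351), and its log2 fold change was 0.00377 on log2(TPM + 1). Of 12 genes of triglyceride breakdown and its inhibitors 6 rose, 1 fell and 5 did not pass (median 0.1), beside the same 19.1% and 19.0%. The phospholipase family gene Ddhd2 rose 1.49-fold, G0s2, an inhibitor of adipose triglyceride lipase, rose 1.28-fold, and the carboxylesterase Ces1d rose 1.19-fold. Lipa, the lysosomal acid lipase gene, rose 1.08-fold. Lipe, the hormone-sensitive lipase gene, fell by 0.33 on the log2 scale and did not pass with limma on log2(FPKM + 1) (adjusted p = 0.0706). With library totals alone, 10 of this list were higher and 1 lower, beside 3537 and 1203 of all 10266 tested genes. On log2(TPM + 1) 11 were higher and 0 lower, beside 3716 and 915.

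Triglyceride export genes moved by small amounts, and among 7 there were 2 calls upward, 3 downward and 2 below threshold (median 0.04), where all tested genes had 19.1% and 19.0%. The balance turned with the scaling and the test, at 4 higher and 2 lower with library totals alone, 4 and 0 on log2(TPM + 1) and 0 and 3 by DESeq2. P4hb and Pdia3, protein disulfide isomerases of which the first is a subunit of the microsomal transfer protein, fell 1.11-fold and 1.12-fold, and neither passed with limma on log2(TPM + 1) (adjusted p = 0.0887 and 0.103). Mttp, the other subunit, and Sar1b, a coat protein gene of vesicle transport, rose 1.05-fold each, and neither passed by DESeq2 or without sedentary replicate 1, sedentary replicate 2, sedentary replicate 3 or exercise replicate 1. Without these in turn, edgeR adjusted p was 0.0729, 0.0871, 0.0718 and 0.249 for Mttp and 0.151, 0.0919, 0.0534 and 0.0971 for Sar1b, which also failed without exercise replicate 3 (0.134). Apob fell 1.07-fold. Its call ended with library totals alone (edgeR adjusted p = 0.209), and its log2 fold change was 0.00824 on log2(TPM + 1). Among 12 genes of transcriptional control 2 rose, 6 fell and 4 did not pass (median −0.11), again beside 19.1% and 19.0% of all tested genes. Mlxipl, which encodes the carbohydrate-responsive factor ChREBP, had means of 84.2 ± 3.35 and 111 ± 2.62 FPKM (SD, n = 3) and rose 1.26-fold on TMM-scaled counts. Insig2 rose 1.15-fold, while Insig1, Scap and Foxo1 fell 1.11-fold, 1.15-fold and 1.23-fold. None of these 3 falls passed with limma on log2(TPM + 1), and that of Insig1 also did not pass with limma on log2(FPKM + 1). The balance of this list depended on scaling. It was 4 higher and 3 lower with library totals alone, beside 3537 and 1203 of all tested genes. With limma on log2(TPM + 1) it was 4 higher and 0 lower, beside 3716 and 915. Against a 1.2-fold change, 1 gene of this list was higher and 0 lower, and export had 0 and 0. Breakdown had 2 and 0, acyl-CoA supply 1 and 1, and the list on phosphatidic acid and diacylglycerol 2 and 0. All tested genes then had 239 higher and 414 lower.

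**Figure D4:**
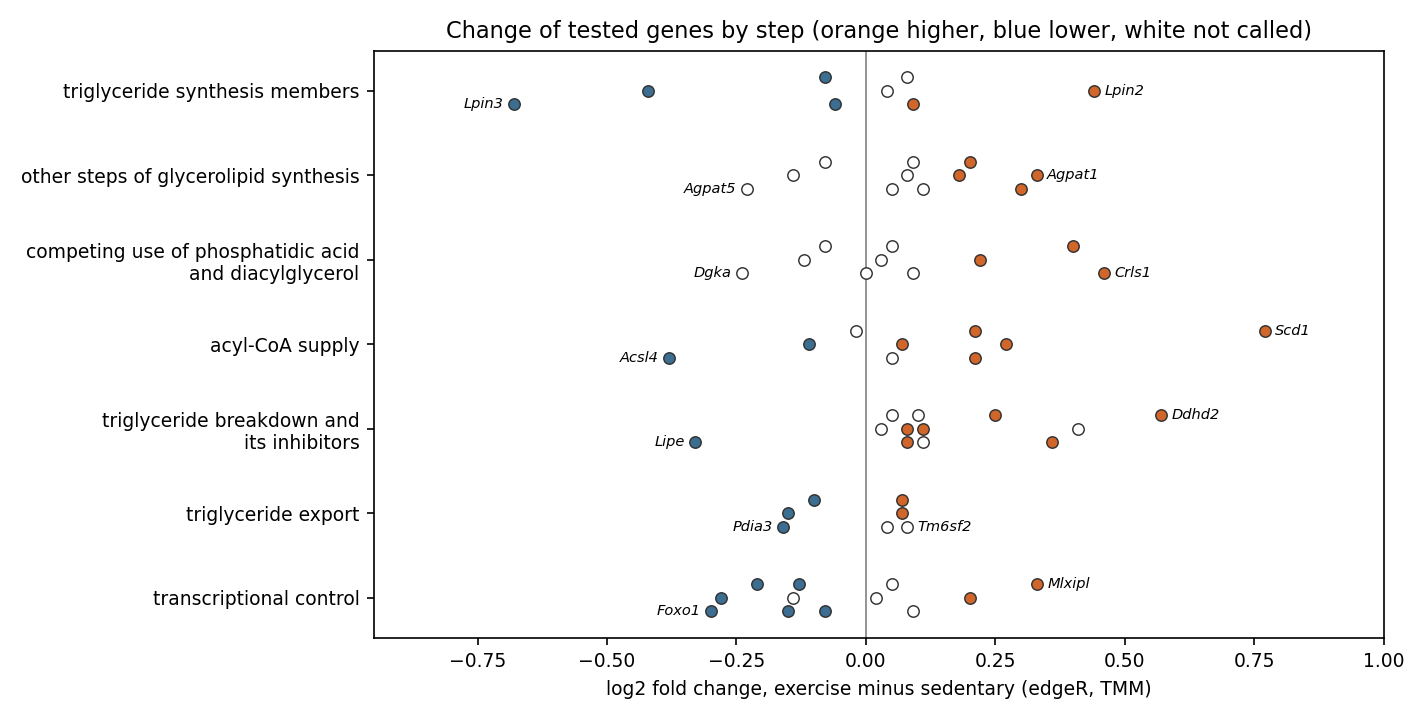
Log2 fold change (horizontal axis, exercise minus sedentary, edgeR with TMM) of every tested gene, one row per list and the triglyceride synthesis members on top; orange points are higher, blue points lower and white points did not pass, and the outermost gene on each side is named. Lpin2 and Lpin3 are the outermost members, and Scd1 has the highest value among the genes shown.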

How the data were processed

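Liver RNA taken up in TRIzol was sequenced as paired reads (DNBseq), per the labels. Reads of low quality and short reads were removed, per the labels' protocols. The build was GRCm38.p6 and cutadapt, featureCounts and MultiQC were used, per the submitters' processing notes. The aligner, the annotation and whether counting used strand are not stated in the sources at hand. The deposited table held FPKM, TPM and read counts per gene and library, per the file headers. Some deposited read counts are not whole, and the counts were treated as estimated counts and rounded here. The authors' TPM and FPKM were used as given, and 6 columns of averages were not used.

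Counts were compared with edgeR 4.0.16 in R 4.3.3 (TMM, quasi-likelihood F test, two-sided, no covariates), over the 10266 genes whose FPKM averaged 1 or more. P-values were adjusted by Benjamini-Hochberg over these genes, with a threshold of 0.05. The SE was taken as the size of the log2 fold change over the root of F. Alternatives used limma 3.58.1 and DESeq2 1.42.0. Shares within a library were compared by exact permutation over 20 assignments. Coordinates and promoters come from RefSeq tables of GRCm38.p6, counted from 1. Exons of GENCODE M21 overlap another gene over 64 bases in Agpat2 (Egfl7), 16 in Agpat3, 200 in Mogat1 and 105 in Pnpla3, so reads there may be shared. The implied length is the count divided by FPKM and library total.

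Each library was matched to its group through its treatment label. The members and lists were chosen with earlier results of these data known. All members are named, with up to 5 genes per list by smallest p, and the genes that enter a share. Genes named outside this rule, Bscl2, Ctdnep1 and Cnep1r1, were chosen after their values were seen. Replicate numbers of the groups are not said to pair mice.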

Additional observations from a re-analysis of the deposited data

How the results depend on the processing

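The rise of Lpin2 and the falls of Lpin1 and Lpin3 kept their direction and passed in all alternatives except the summed libraries with an assumed variation of 0.1 or 0.2, and Lpin3 was not tested at a mean FPKM of at least 5. Their log2 fold changes ranged from 0.42 to 0.53, −0.44 to −0.29 and −0.77 to −0.40. The other calls among the members did not hold throughout, and the cause was not tested. Dgat2 turned to 0.0149 with library totals only, 0.0116 with limma on log2(FPKM + 1), 0.0116 with a pseudocount of 0.1 and 0.0461 on log2(TPM + 1), and Gpam turned to 0.0316 on the last. With 1 library left out, Mogat1 ranged from −0.32 to 0.471 and Gpat3 from −0.0161 to 0.0981, and both were below 0 without sedentary replicate 3 or exercise replicate 3 (−0.05 and −0.00805 in the latter). On log2(TPM + 1) Acly was at 0.00377 and Apob at 0.00824. The members called were 2 higher and 4 lower. They were 3 and 2 with library totals only and with totals without the 20 most abundant genes, 2 and 2 with quantile normalization, DESeq2 and no filter, 4 and 2 with the 3 other limma fits, 1 and 2 against a 1.2-fold change, and 0 and 0 with both summed fits. With 1 library left out they ranged from 1 to 2 higher and 2 to 4 lower. Over all genes, the calls were 3537 higher and 1203 lower with library totals only, 1272 and 1240 with DESeq2, and 2868 and 1099 with limma on log2(FPKM + 1). They were 2856 and 1096 with a pseudocount of 0.1, 3716 and 915 on log2(TPM + 1), 239 and 414 against a 1.2-fold change, and 50 and 126 or 5 and 18 with summed libraries. Leaving out 1 library gave 1705 to 1765 higher and 1697 to 1746 lower. In read counts the share of Lpin3 among lipins differed by −1.24 percentage points and that of Dgat2 by −0.39. The share difference of Agpat3 ranged from −0.146 to 0.661 with 1 library left out. Same-numbered libraries of the groups did not deviate together (correlations of −0.0306 to −0.0159). With the replicate block, 1929 genes were higher and 1917 lower, with 2 and 4 members, no member's call changed, and Sar1b lost its call (edgeR adjusted p = 0.0544). DESeq2 gave no adjusted p for Mogat1 and Pnpla3.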
